A study of Homo sapiens with 48 samples.

Results

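The 54 genes described here run the machinery of mitosis: the cyclins and kinases that start it, the spindle and kinetochore that separate the chromosomes, the checkpoint that holds the cell until every chromosome is attached, and the proteins that cut the cell apart. They were taken as a list of gene symbols. Each is represented by 1 probe set, the brightest on average across the 48 arrays among those annotated to that symbol alone. All 54 had such a probe set, of 19775 genes on the array that had one. No measured value entered the choice of the list other than the brightness of the probe sets, but the list was drawn up with earlier results of these data known.

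The cells were T47D-YA, a breast cancer line that lacks IRS proteins, the adaptors that carry the signal of the IGF-I receptor into the cell. Clones #10 and #20 are labelled as expressing IRS-1, and clones #1 and #6 as expressing IRS-2. All were kept for 24 h without serum. IGF-I was then added, or SFM+FN alone in the controls (SFM is serum-free medium, and the labels do not spell out FN), and RNA was taken 4 h or 24 h later. Each of the 16 groups of clone, time and treatment holds 3 arrays, and the controls are written SFM. Each line is 1 clone, all 4 carry an introduced adaptor, and no array of the IRS-null parent was analysed here. RNA came from either of 2 extraction kits, and the labels do not say which array had which. The labels give no dose of IGF-I for the arrays, and nothing says that the 3 arrays of a group came from separate cultures, so p-values measure only the spread between these arrays, which may be technical.

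The adaptor probe sets did not follow the labels. Of 3 probe sets for IRS1, 1 had log2 values of 5.25 to 6.42 on the 24 arrays of clones labelled IRS-1, with a median of 5.87, against 7.65 to 8.98 with a median of 8.35 on the 24 arrays of clones labelled IRS-2. It was thus 5.36-fold lower in the clones labelled IRS-1, and the groups did not overlap. The other 2 IRS1 probe sets were also lower in the clones labelled IRS-1, by a log2 difference of -0.14 and -0.41. Of both IRS2 probe sets, 1 was higher in the clones labelled IRS-1 (0.38) and the other differed by -0.018. A probe set outside the introduced sequence would measure only the cell's own transcript, and whether these lie outside it is not given in the sources used here. The clones are therefore called by number or as labelled throughout. The 10 defining genes of luminal breast epithelium had medians of 9.90 (ELF3) to 14.81 (KRT18), and the 10 genes of stromal, blood, vessel or basal cells had medians of 5.87 (KRT14) to 9.89 (COL1A1). Within groups, arrays correlated at 0.994 to 0.998.

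A cell enters mitosis when CDK1, bound to cyclin A or B, is switched on by the CDC25 phosphatases. Chromosomes condense, spindle microtubules attach to kinetochores built on the centromeres, and the checkpoint kinases hold back the anaphase-promoting complex until attachment is complete. Most of these genes are transcribed late in the cell cycle, in G2 and M, under the MYBL2, FOXM1 and DREAM (MuvB) complexes, so their RNA is widely used as a sign of dividing cells. In bulk RNA, more cells in G2 and M and more RNA per cell cannot be told apart.

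Most of the genes were brighter than the typical gene of the array. Their mean log2 values ran between 7.74 (SKA1, a microtubule-binding kinetochore protein) and 12.53 (ZWINT, a kinetochore scaffold), with a median of 10.87, against 8.30 over all genes. All but SKA1 lay above that median of all genes. The lowest single value was 6.92. The dimmest of the 54 thus read within the range of the genes of stromal, blood, vessel or basal cells, whose medians reached 9.89 (COL1A1). Of the 54 genes, 29 had a single probe set and 25 had several.

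IGF-I for 24 h raised nearly the whole mitotic set in 3 clones and most of it in the fourth. In clone #10, 52 of 54 genes rose (passed limma's test at a Benjamini-Hochberg adjusted p under 0.05), with a median log2 fold change of 0.48, a rise of 1.39-fold. In clone #20 it was 47 genes with a median of 0.37, in clone #1 49 genes with a median of 0.34, and in clone #6 32 genes with a median of 0.23. None fell in any clone at that p, and the fitted change was above 0 for all 54 genes in each of the 4 clones. Among all 19775 genes the share that rose was 4.39% in clone #10, 7.46% in #20, 2.93% in #1 and 1.42% in #6, and the share that fell was 6.65%, 2.95%, 1.62% and 4.34%. The median log2 change of all genes lay between -0.012 and 0.0060. The 3 IGF-I arrays all lay above the 3 SFM arrays for 54 of the genes in clone #10, 51 in #20, 51 in #1 and 46 in #6. That was so for 13.4%, 15.4%, 13.6% and 9.76% of all genes in the same order of clones. The count of genes that rose at the adjusted p changed without the arrays of 1 letter. It was then 14 to 20 in clone #6, lowest without B, and 30 to 46 in clone #1, lowest without C.

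The changes were even in direction but small in size. Only 6 genes passed the test with a rise of at least 1.5-fold in clone #10, 1 in #20, 1 in #1 and 0 in #6, where that fold was passed by 0.197%, 0.268%, 0.0101% and 0.00506% of all genes. Clone #1 had 2 such genes in all, and PLK1 was one of them. On dimmer probe sets, CDK1 (means 12.13 and 11.36, 0.67 on both) and ESPL1 (mean 10.81, 0.60) also passed that fold in #10. Their brightest probe sets changed by 0.50 and 0.56 there. Dimmer ones for AURKB (0.35), CCNA2 (0.50) and CDCA3 (0.45) did not reach that fold in #10. Sizes lay near the limit: without the arrays lettered A the counts in #10 and #20 were 3 and 0, without B that in #10 was 11 and that in #1 was 0, and without C that in #20 was 5. No more than 1.42% of all genes, the share that rose in #6, can have risen in all 4 clones. Of the 54 genes, 29 rose in all 4 clones, 16 in 3, 7 in 2 and 2 in 1. The 2 were ECT2, which activates RhoA for cytokinesis, and SGO1, the guardian of centromeric cohesion, both of which passed in clone #6. This rests on the probe set used: a dimmer one for ECT2 (mean 10.16) passed in clones #10 (0.28), #20 (0.18) and #1 (0.29) and not in #6 (0.17, adjusted p = 0.0894), and a dimmer one for SGO1 (mean 7.11) passed in #1 alone (0.42, adjusted p = 0.0329).

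**Figure D1:**
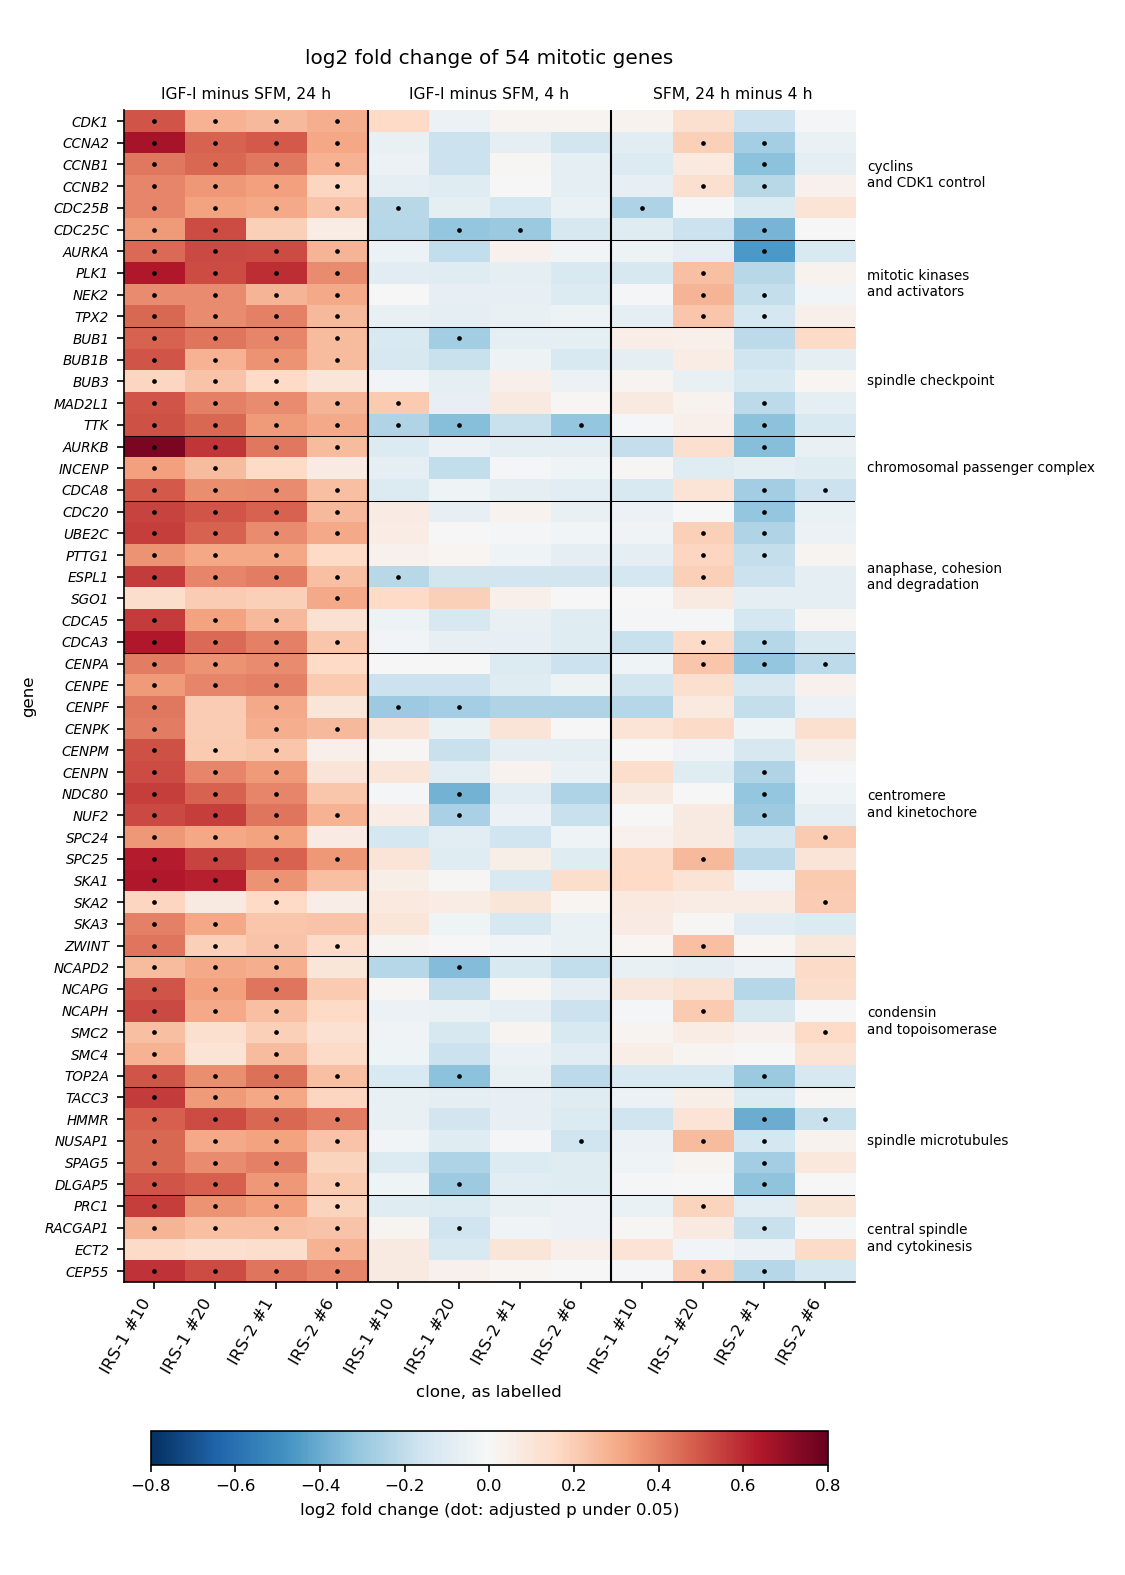
log2 fold change of each of the 54 genes (rows, grouped by role) in 12 comparisons (columns, by clone): IGF-I minus SFM at 24 h, IGF-I minus SFM at 4 h, and SFM at 24 h minus SFM at 4 h. Red is higher, blue lower, and a dot marks an adjusted p under 0.05. The 24 h block is red throughout, with medians of 0.48, 0.37, 0.34 and 0.23, while the 4 h block is pale or blue and the SFM block differs between clones.

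The 6 genes past 1.5-fold in clone #10 came from different steps of mitosis. AURKB is the kinase of the chromosomal passenger complex, which releases wrongly attached microtubules. On its arrays it read 9.90, 9.92 and 9.93 with IGF-I, against 9.04, 9.35 and 9.10 in SFM (log2). All 3 IGF-I arrays stood above all 3 SFM arrays, and the change was 0.75 (SE 0.070, adjusted p = 4.80e-11), the largest of the 54 in any clone.

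CCNA2, the cyclin of S phase and early mitosis, read 10.92, 10.80 and 10.79 with IGF-I, against 10.10, 10.18 and 10.24 in SFM in clone #10, a change of 0.66 (SE 0.053, adjusted p = 5.50e-13). PLK1, a kinase that drives centrosome maturation and mitotic entry, read 10.34, 10.14 and 10.09 with IGF-I, against 9.45, 9.69 and 9.52 in SFM, a change of 0.64 (SE 0.077, adjusted p = 3.33e-08). CDCA3, a trigger of the degradation of the mitosis inhibitor WEE1, read 10.21, 10.10 and 10.18 with IGF-I, against 9.47, 9.59 and 9.51 in SFM, a change of 0.64 (SE 0.055, adjusted p = 3.68e-12). In all 3 genes the IGF-I and SFM arrays were well apart.

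SPC25, a subunit of the NDC80 complex that ties kinetochores to microtubules, read 9.99, 9.81 and 9.87 with IGF-I, against 9.26, 9.20 and 9.30 in SFM in clone #10, a change of 0.63 (SE 0.068, adjusted p = 1.75e-09). SKA1, of the SKA complex that works beside NDC80, was the dimmest gene of the set, is measured by a probe set that may bind similar sequences (x_at), and read 7.92, 7.81 and 7.88 with IGF-I, against 7.10, 7.36 and 7.22 in SFM, a change of 0.64 (SE 0.11, adjusted p = 2.24e-05). Both had non-overlapping groups. CEP55, which brings the abscission machinery to the midbody, just missed the fold threshold at 0.58 (adjusted p = 2.25e-11).

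In the other clones fewer genes reached that size. SKA1 was the gene past 1.5-fold in clone #20, at 8.01, 7.92 and 7.94 with IGF-I, against 7.09, 7.30 and 7.61 in SFM, a change of 0.62 (adjusted p = 4.58e-05). PLK1 was the one in clone #1, at 10.39, 10.52 and 10.41 with IGF-I, against 9.89, 9.83 and 9.83 in SFM, a change of 0.59 (adjusted p = 9.26e-07). None of these arrays overlapped between IGF-I and SFM.

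In clone #6 the largest changes were those of HMMR, CEP55 and PLK1. HMMR, a spindle assembly protein that binds hyaluronan at the cell surface, read 11.41, 11.48 and 11.65 with IGF-I, against 11.06, 11.16 and 11.10 in SFM, a change of 0.41 (adjusted p = 4.68e-06). CEP55 read 11.17, 11.32 and 11.29 with IGF-I, against 10.81, 10.90 and 10.90 in SFM, a change of 0.39 (adjusted p = 1.91e-06). For both, IGF-I arrays were all higher than SFM arrays. PLK1 read 10.53, 10.51 and 10.56 with IGF-I, against 10.04, 10.22 and 10.22 in SFM, a change of 0.38 (adjusted p = 0.00147), again without overlap, but without the arrays lettered A it was 0.32 and did not pass (adjusted p = 0.114).

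**Figure D2:**
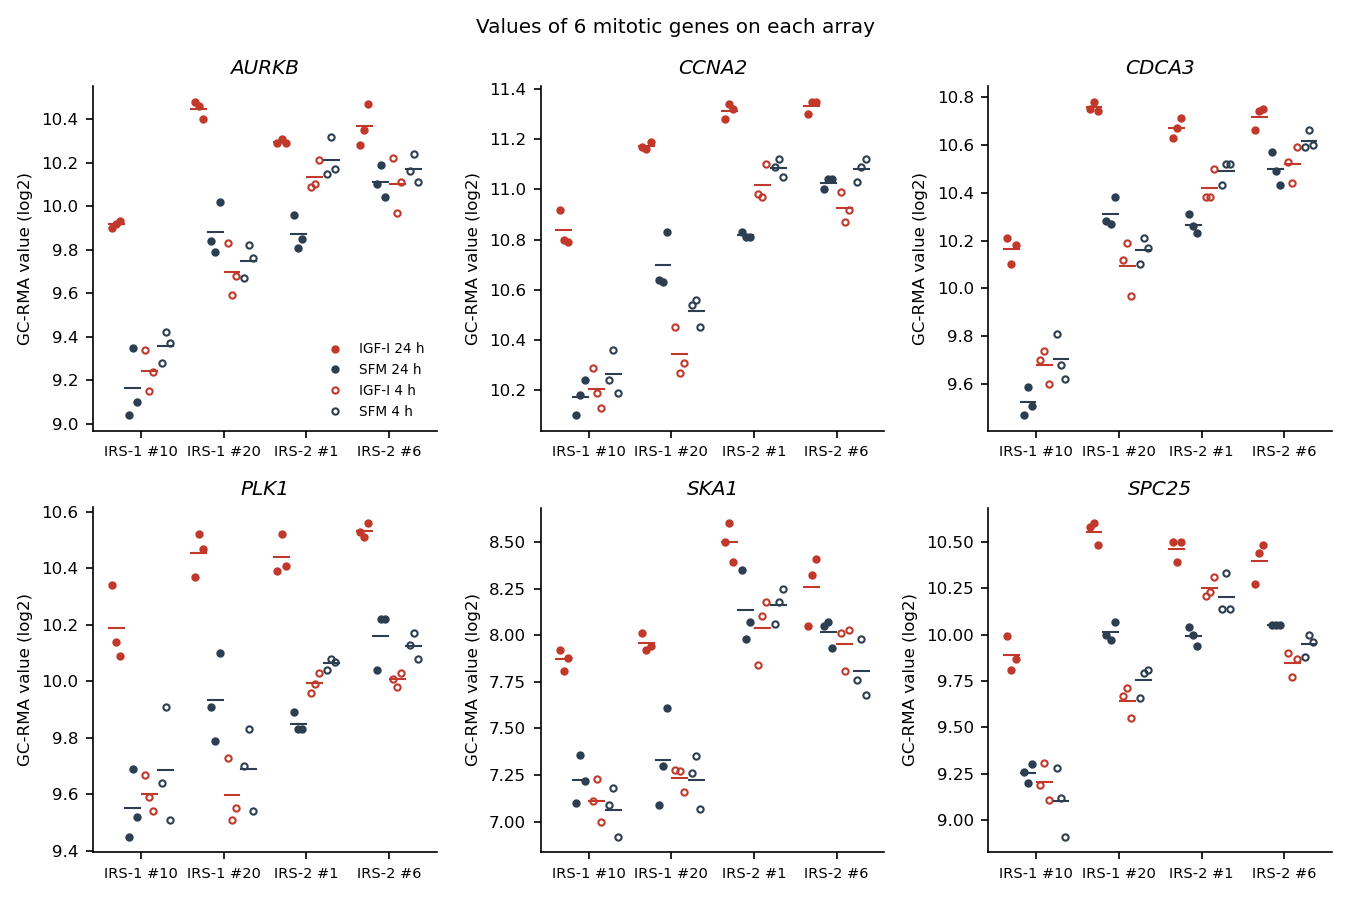
GC-RMA values (log2, y axis) of the 6 genes past 1.5-fold in some clone, by clone (x axis). Points are single arrays and bars their means, red for IGF-I and dark blue for SFM, filled for 24 h and open for 4 h. In clone #10 the filled red points of AURKB sit at 9.90 to 9.93, above its SFM arrays at 9.04 to 9.35, and the y axes do not start at 0.

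By role, the group of cyclins and CDK1 control rose in all 6 genes in clones #10 and #20 and in 5 of 6 in #1 and #6. CCNB1, the main cyclin of mitosis, changed by 0.42, 0.46, 0.42 and 0.28 in clones #10, #20, #1 and #6, and all 4 changes passed. CDC25C, a phosphatase that activates CDK1, rose by 0.34 in #10 and 0.52 in #20, and its changes of 0.19 and 0.061 in #1 and #6 did not pass.

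The 4 kinases and activators (AURKA, PLK1, NEK2 and TPX2) rose in every clone, with medians of 0.45, 0.45, 0.46 and 0.29. AURKA, the kinase of the spindle poles, rose by 0.45, 0.53, 0.52 and 0.27, in clones #10, #20, #1 and #6. The spindle checkpoint group rose in 5 of 5 genes in clones #10, #20 and #1 and in 4 of 5 in #6. MAD2L1, the inhibitor that the checkpoint loads onto CDC20, rose by 0.50, 0.40, 0.38 and 0.27, whereas BUB3, a WD40 protein that also works outside mitosis, was among the smallest changes at 0.17, 0.23, 0.16 and 0.096, the last of which did not pass. Of the 6 probe sets for BUB3, only this brightest one passed in clones #10 and #1. A second (mean 11.97) passed in #20 (0.21), and none passed in #6. Of the passenger complex, AURKB and CDCA8 (borealin) rose in all clones. The scaffold INCENP rose in clones #10 (0.33) and #20 (0.25) and had 0.16 and 0.068 in #1 and #6.

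The anaphase, cohesion and degradation group rose in 6 of 7 genes in clones #10, #20 and #1 and in 5 of 7 in #6. CDC20, the activator of the anaphase-promoting complex, rose by 0.54, 0.50, 0.47 and 0.26, and UBE2C, its ubiquitin-conjugating enzyme, by 0.55, 0.47, 0.38 and 0.30, in clones #10, #20, #1 and #6. PTTG1 (securin), the inhibitor of separase, rose by 0.36, 0.31 and 0.31 and had 0.16 in #6. Its probe set is of a type (x_at) that can bind near-identical copies, so its value is uncertain. The same holds for SKA1, BUB3 and CENPA, which were also read from x_at probe sets.

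The 14 centromere and kinetochore genes rose in 14, 11 and 13 cases in clones #10, #20 and #1, but in 4 in #6, where ZWINT, SPC25, NUF2 and CENPK passed. A dimmer probe set for CENPN (mean 10.29) passed in #6 too (0.21), and its other probe sets did not. The 4 subunits of the NDC80 complex all rose in clones #10, #20 and #1, between 0.31 (SPC24 in #20) and 0.63 (SPC25 in #10), and in #6 NUF2 and SPC25 did. SKA2, the third partner of the SKA complex beside SKA1 and SKA3, had the smallest mean response of the 54, 0.11 over the 4 clones, against 0.47 for SKA1.

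Condensin and topoisomerase genes rose in 6 of 6, 4 of 6, 6 of 6 and 1 of 6 cases in clones #10, #20, #1 and #6. The 1 was TOP2A, which untangles sister chromatids, at 0.24, after 0.50, 0.37 and 0.44 in the other clones. Of the subunits of condensin I, NCAPG, NCAPH and NCAPD2 rose by 0.50, 0.53 and 0.25 in #10. SMC2 and SMC4, the ATPase core shared by both condensins, rose by 0.24 and 0.28 there. A dimmer SMC4 probe set (mean 11.57) passed in all 4 clones, by 0.35, 0.17, 0.37 and 0.26 in #10, #20, #1 and #6. Another (mean 8.12) passed in none. The 5 spindle microtubule genes (TACC3, HMMR, NUSAP1, SPAG5 and DLGAP5) all rose in clones #10, #20 and #1, and 3 did in #6. Of the 4 central spindle and cytokinesis genes, PRC1, RACGAP1 and CEP55 rose in every clone, and ECT2 did in #6 (0.28), where all 4 passed.

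The genes differed in the size of their response. Ranked by the mean of the 4 responses, PLK1 (0.53), AURKB (0.50), SPC25 (0.50), CCNA2 (0.48) and CEP55 (0.48) led, and SKA2 (0.11), BUB3 (0.16), SMC2 (0.17), ECT2 (0.17) and SMC4 (0.20) came last. With standard errors of 0.035 to 0.11 on a single clone's change, neighbours in that order do not differ beyond their spread. Across the 54 genes the responses of clones #10 and #20 correlated at a Pearson r of 0.71, #10 and #1 at 0.70, #20 and #1 at 0.76, #1 and #6 at 0.61, #20 and #6 at 0.53, and #10 and #6 at 0.41. These are descriptions over genes measured on the same arrays, and genes are not independent replicates. Of the 54 responses, 44 were largest in clone #10 and 47 smallest in #6. That order was not counted over all genes, so whether it is particular to these genes is not known.

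The dimmer probe sets of the same genes, 44 in all, rose in 25, 23, 20 and 15 cases in clones #10, #20, #1 and #6, and none fell. The share of the dimmer probe sets of all genes that rose was not counted, so these counts have no background. For AURKB the dimmer probe set, with a mean of 7.21, rose in clone #10 (0.35, adjusted p = 0.00575) and had changes of 0.096 to 0.17 that did not pass in the others. The second probe set of CCNA2, almost as bright, rose in all 4 clones, by 0.50, 0.33, 0.39 and 0.28.

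Because the genes moved together, their promoters were searched for elements known from this class. The window ran 250 bases before to 50 after the start of each gene in the RefSeq table (GRCh38.p14), which held 47 of the 54. TTTGAA, the core of the cell cycle homology region bound by the DREAM complex and MYBL2 (read on either strand, TTCAAA on the other), was present in 31 of them, 66.0%, against 11.9% of 15384 array genes with a promoter in the table. CCAAT, the box bound by NF-Y (ATTGG on the other strand), was present in 33, 70.2%, against 36.1%. Both were present in 22, 46.8%, against 4.82%. Matches of the 2 overlapped in 1 case. TTTCGCGC, an E2F-like motif (GCGCGAAA on the other strand), was present in 1, 2.13%, against 0.767%. In 26 of the 31, a TTTGAA began at most 50 bases before the start or after it. Of 36 promoters of DNA replication genes, which peak in S phase, 2.78% held TTTGAA and 13.9% held TTTCGCGC. Other genes of mitosis held the first motifs too: TTTGAA was present in 75.0% and CCAAT in 83.3% of 12 mitotic kinesin promoters, with both in 66.7%, and in 37.7%, 50.9% and 20.8% of 53 promoters of other mitosis genes. The mean 24 h response had a median of 0.36 in the 31 genes with TTTGAA, range 0.17 to 0.53, and 0.31 in the 16 without it, range 0.11 to 0.50. It had a median of 0.34 both in the 33 genes with CCAAT and in the 14 without it.

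The 107 bases before and 3 after the start are printed for the 4 genes past 1.5-fold in clone #10 whose stretch held either motif, with every match in capitals. They lie at chr16:23678782-23678891 (plus strand) for PLK1, chr12:6851284-6851393 (minus strand) for CDCA3, chr2:168890428-168890537 (minus strand) for SPC25 and chr4:121823881-121823990 (minus strand) for CCNA2, and each reads 5′ to 3′ along its gene.
PLK1: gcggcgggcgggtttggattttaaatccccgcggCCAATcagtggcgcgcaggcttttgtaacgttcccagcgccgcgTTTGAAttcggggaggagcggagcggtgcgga
CDCA3: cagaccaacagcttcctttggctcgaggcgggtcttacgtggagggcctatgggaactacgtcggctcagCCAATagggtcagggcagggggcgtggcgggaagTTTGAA
SPC25: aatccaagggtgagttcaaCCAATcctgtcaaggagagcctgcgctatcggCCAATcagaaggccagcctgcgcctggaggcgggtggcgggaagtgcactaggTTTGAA
CCNA2: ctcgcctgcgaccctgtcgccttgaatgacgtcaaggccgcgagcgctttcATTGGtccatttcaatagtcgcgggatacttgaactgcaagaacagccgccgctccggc
In the first 3 the CCAAT box comes first and TTTGAA follows close to the start, which it spans in CDCA3 and SPC25, while CCNA2 had the box and no exact TTTGAA. Only exact letters were searched, so variants of a motif were not counted. Of the others, SKA1 had TTTGAA at position 35 after the start and AURKB had a CCAAT box at position -153, both outside the stretch. A match of letters does not show a bound site.

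IGF-I for 4 h left these genes level or slightly lower. In clone #10, 1 gene rose and 4 fell. In #20 none rose and 10 fell, in #1 none rose and 1 fell, and in #6 none rose and 2 fell, with medians of -0.035, -0.10, -0.062 and -0.078. The share of all genes that fell was 1.47%, 3.54%, 0.794% and 1.58%, and the share that rose was 1.18%, 1.17%, 1.53% and 1.89%. At an unadjusted p under 0.05, limma had 11, 28, 6 and 14 of the genes lower and 3, 1, 1 and 0 higher. At that p, 9.46%, 13.3%, 6.89% and 8.16% of all genes were lower and 6.07%, 6.33%, 5.98% and 5.38% higher. The falls in #20 numbered 23 without the arrays lettered A and 4 without B, and those in #6 numbered 5 without A and 0 without B.

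The 1 rise was MAD2L1 in clone #10 (0.21). Of the falls there, CENPF, a large kinetochore protein, was the largest, at 10.58, 10.54 and 10.54 with IGF-I, against 10.72, 10.83 and 10.97 in SFM (log2 change -0.29, adjusted p = 0.0310). TTK, the kinase that starts checkpoint signalling, read 9.49, 9.62 and 9.44 with IGF-I, against 9.81, 9.74 and 9.70 in SFM (-0.24, adjusted p = 0.0364). ESPL1, the protease separase that cuts cohesin, read 10.48, 10.59 and 10.48 with IGF-I, against 10.65, 10.80 and 10.76 in SFM (-0.22, adjusted p = 0.0232). IGF-I arrays of all 3 lay below the SFM arrays, but all 3 calls were lost without the arrays lettered B or C, with median centring, with a fit to the 6 arrays alone or without the intensity trend.

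In clone #20, NDC80, the long rod of the kinetochore's microtubule coupler, had 9.75, 9.57 and 9.50 with IGF-I, against 9.93, 9.89 and 10.15 in SFM (-0.38, adjusted p = 0.00272). NCAPD2, a condensin I subunit, had 9.51, 9.26 and 9.19 with IGF-I, against 9.52, 9.66 and 9.82 in SFM (-0.35, adjusted p = 0.00508). TTK had 9.58, 9.57 and 9.45 with IGF-I, against 9.75, 9.80 and 10.07 in SFM (-0.34, adjusted p = 6.20e-04). In each of these the SFM array lettered C was the highest of the 6, and without the arrays lettered C none of the 54 genes passed in this comparison. The other 7 that fell in #20 were CDC25C, BUB1, CENPF, NUF2, TOP2A, DLGAP5 and RACGAP1, by 0.16 to 0.33.

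CDC25C was the gene that fell in clone #1, at 8.93, 9.03 and 8.99 with IGF-I, against 9.28, 9.38 and 9.19 in SFM (-0.30, adjusted p = 0.0381), a call lost without any 1 letter. In clone #6, TTK had 10.03, 9.99 and 10.07 with IGF-I, against 10.22, 10.41 and 10.37 in SFM (-0.31, adjusted p = 0.00177). NUSAP1, which bundles spindle microtubules, had 11.35, 11.30 and 11.33 with IGF-I, against 11.42, 11.54 and 11.50 in SFM (-0.16, adjusted p = 0.0190). The IGF-I arrays were below the SFM arrays in each case, and TTK was the only one of the 54 genes that fell in 3 clones.

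The 24 h response exceeded the 4 h response in most genes. The difference between both responses within a clone passed, as higher at 24 h, for 48 genes in clone #10, 50 in #20, 41 in #1 and 22 in #6, with medians of 0.50, 0.46, 0.41 and 0.29, and none passed as lower. The share of all genes that passed as higher was 2.21%, 6.27%, 0.915% and 0.399%, and as lower 1.68%, 0.991%, 0.657% and 1.17%. AURKB led in #10 (0.86, SE 0.099, adjusted p = 6.47e-08) and NDC80 in #20 (0.85, SE 0.11, adjusted p = 7.99e-07). PLK1 led in #1 (0.67, SE 0.11, adjusted p = 1.57e-04) and TTK in #6 (0.61, SE 0.090, adjusted p = 1.64e-05). Without the arrays of 1 letter the counts were 31 to 47 in #20, lowest without B, 10 to 26 in #1, lowest without B, and 7 to 15 in #6, lowest without B and without C.

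Without IGF-I the counts of mitotic genes that changed between 4 h and 24 h varied by clone, and clones #10 and #6 stayed nearly level. Whether the clones differed in this was not tested. In clone #1 they declined: 26 of 54 fell and none rose, with a median of -0.19, where 4.74% of all genes fell. In clone #20, 16 rose and none fell, with a median of 0.074, where 9.18% of all genes rose. In clone #10, 1 fell and none rose, with a median of -0.014, where 0.374% of all genes fell. In clone #6, 3 rose and 3 fell, with a median of -0.0028, where 10.6% of all genes rose and 5.54% fell. The share of all genes in the directions not taken was 2.90% rising in #1, 16.6% falling in #20 and 2.21% rising in #10.

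AURKA had the largest change of these, in clone #1, at 11.01, 10.91 and 10.90 in SFM at 24 h, against 11.30, 11.49 and 11.39 in SFM at 4 h (-0.46, adjusted p = 1.66e-06). HMMR followed there, at 11.11, 11.01 and 10.96 at 24 h, against 11.33, 11.47 and 11.48 at 4 h (-0.40, adjusted p = 3.65e-06). CDC25C had 8.98, 8.86 and 8.91 at 24 h, against 9.28, 9.38 and 9.19 at 4 h (-0.37, adjusted p = 0.00250). The 24 h arrays lay below the 4 h arrays in all 3. Without the arrays lettered B the count of genes that fell in clone #1 was 5, and without those lettered C 13.

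In clone #20 the largest rise was that of NEK2, a kinase that splits the centrosomes, at 11.36, 11.45 and 11.36 in SFM at 24 h, against 11.09, 11.10 and 11.16 at 4 h (0.27, adjusted p = 3.61e-04). SPC25 had 10.00, 9.97 and 10.07 at 24 h, against 9.66, 9.79 and 9.81 at 4 h (0.26, adjusted p = 0.00433). NUSAP1 had 11.51, 11.55 and 11.55 at 24 h, against 11.28, 11.27 and 11.30 at 4 h (0.25, adjusted p = 1.49e-05). These arrays did not overlap either, but the count of 16 turned on the scaling, with 30 after quantile normalization and 7 after median centring, and was 6 without the arrays lettered C.

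The gene that fell in clone #10 was CDC25B, a CDK1-activating phosphatase, at 11.07, 11.13 and 11.05 at 24 h, against 11.24, 11.46 and 11.28 at 4 h (-0.25, adjusted p = 0.0256), a call lost without the arrays lettered B or C. In clone #6, CENPA, the histone that marks centromeres, had 9.47, 9.47 and 9.32 at 24 h, against 9.60, 9.63 and 9.66 at 4 h (-0.21, adjusted p = 0.0286). SPC24 had 9.42, 9.57 and 9.41 at 24 h, against 9.16, 9.27 and 9.33 at 4 h (0.21, adjusted p = 0.0342). Each of these was apart between times. SKA2 had 11.62, 11.60 and 11.63 at 24 h, against 11.42, 11.44 and 11.41 at 4 h (0.20, adjusted p = 4.03e-04), with no overlap. The SFM arrays at 24 h are also the controls of the 24 h IGF-I comparison, so a low value on them enters both. In clone #1 the median of the 54 genes was 0.34 for IGF-I at 24 h and -0.19 for SFM over time, and in clone #10 it was 0.48 and -0.014.

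Set on 1 scale, each gene minus its mean over all 48 arrays, the median level of the 54 genes showed where each group stood. In clone #10 it was 0.069 ± 0.019 with IGF-I at 24 h, against -0.39 ± 0.053 in SFM at 24 h, and in clone #20 it was 0.27 ± 0.031 against -0.078 ± 0.068 (log2, SD, n = 3 arrays each). In clone #1 it was 0.37 ± 0.0086 with IGF-I against 0.021 ± 0.050 in SFM, and in clone #6 0.33 ± 0.044 against 0.11 ± 0.029. At 4 h the levels with IGF-I were -0.38, -0.30, 0.19 and 0.015 in clones #10, #20, #1 and #6, against -0.38, -0.16, 0.22 and 0.12 in SFM. The 24 h IGF-I arrays were the highest of each clone without exception. The clones with the lowest SFM levels at 24 h also had the largest rises, although levels and rises share the SFM arrays.

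**Figure D3:**
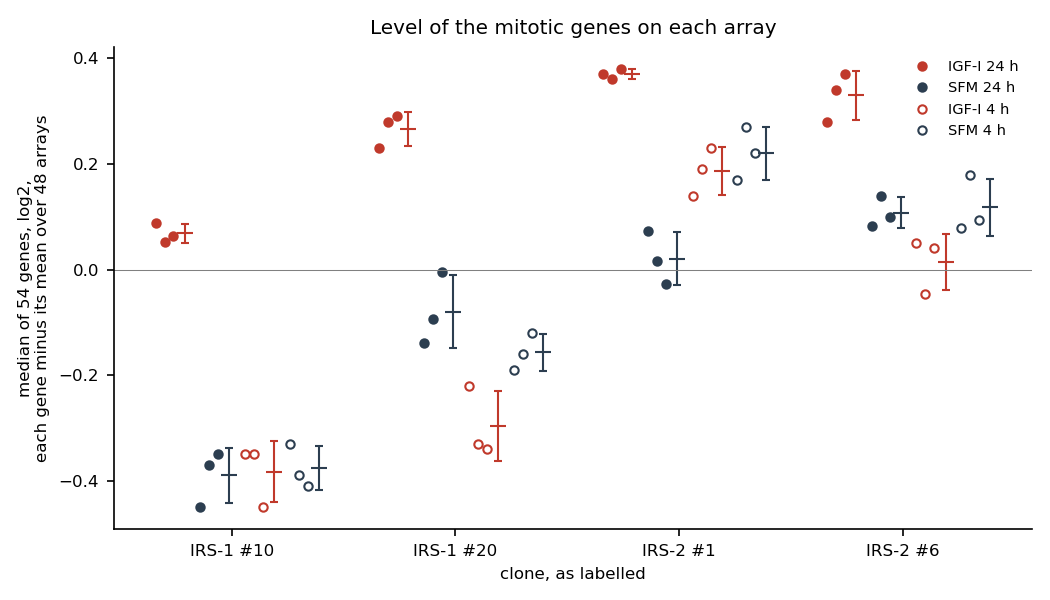
Median level of the 54 genes on each array (y axis, log2, each gene centred on its mean over 48 arrays) by clone (x axis). Points are arrays and bars the mean with its SD of 3 arrays, red for IGF-I and dark blue for SFM, filled for 24 h and open for 4 h. The 24 h IGF-I arrays stand highest in every clone, from 0.053 in clone #10 up to 0.38 in clone #1.

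The clones labelled IRS-1 had lower levels of the mitotic genes in SFM than those labelled IRS-2. At 24 h, 48 of 54 were lower and 1 was higher, ESPL1 (0.19), with a median difference of -0.32. At 4 h, 47 were lower and none higher, with a median of -0.47. These differences were common on the array, since 35.1% of all genes passed as lower and 21.4% as higher at 24 h, and 36.3% and 16.7% at 4 h. SKA1 differed most at both times, by -0.80 (SE 0.075) at 24 h and -0.84 (SE 0.075) at 4 h. A difference between 2 pairs of clones holds every difference between the clones themselves, and the p-value here does not include the spread between clones.

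The response to IGF-I at 24 h differed between the labels past the test in 5 of 54 genes. The mean response of clones #10 and #20 minus that of #1 and #6 was above 0 for 51 of 54 genes, with a median of 0.12, where 56.5% of all genes were above 0. The 5 that passed, all larger in the clones labelled IRS-1, were AURKB (0.32, SE 0.070, adjusted p = 0.0136), CDCA5 (0.25, SE 0.052, adjusted p = 0.00563), CDCA3 (0.23, SE 0.055, adjusted p = 0.0301), CENPM (0.23, SE 0.055, adjusted p = 0.0306) and PRC1 (0.20, SE 0.046, adjusted p = 0.0224). Among all genes 0.703% passed in that direction and 0.0657% in the other. CDCA5 is sororin, which stabilizes cohesion, CENPM belongs to the inner kinetochore, and PRC1 bundles the central spindle. The count was 0 after median centring, 10 after quantile normalization and 0 without the arrays lettered A.

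Clone by clone, AURKB responded by 0.75 and 0.57 in #10 and #20, against 0.42 and 0.25 in #1 and #6. CDCA5 responded by 0.56 and 0.32, against 0.26 and 0.12, and PRC1 by 0.55 and 0.36, against 0.33 and 0.18, so that both clones labelled IRS-1 stood above both labelled IRS-2. CENPM did not keep that order, with 0.51 and 0.21 against 0.22 and 0.040. Nor did AURKB and CDCA3 on their dimmer probe sets. That of AURKB (mean 7.21) had 0.35 and 0.096, against 0.10 and 0.17. That of CDCA3 (mean 9.62) had 0.45 and 0.35, against 0.45 and 0.23. CDCA5, PRC1 and CENPM had 1 probe set each. Both clones labelled IRS-1 had larger responses than both labelled IRS-2 in 26 of the 54 genes, 48.1%, against 17.8% of all genes, and the reverse order occurred in none of the 54. At 4 h none of the 54 genes passed the difference between labels, with a median of -0.015, and at an unadjusted p under 0.05 limma had 2 higher and 1 lower, where 2.91% and 4.45% of all genes were. Of all genes, 0.0506% passed as higher and 0.389% as lower at 4 h.

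**Figure D4:**
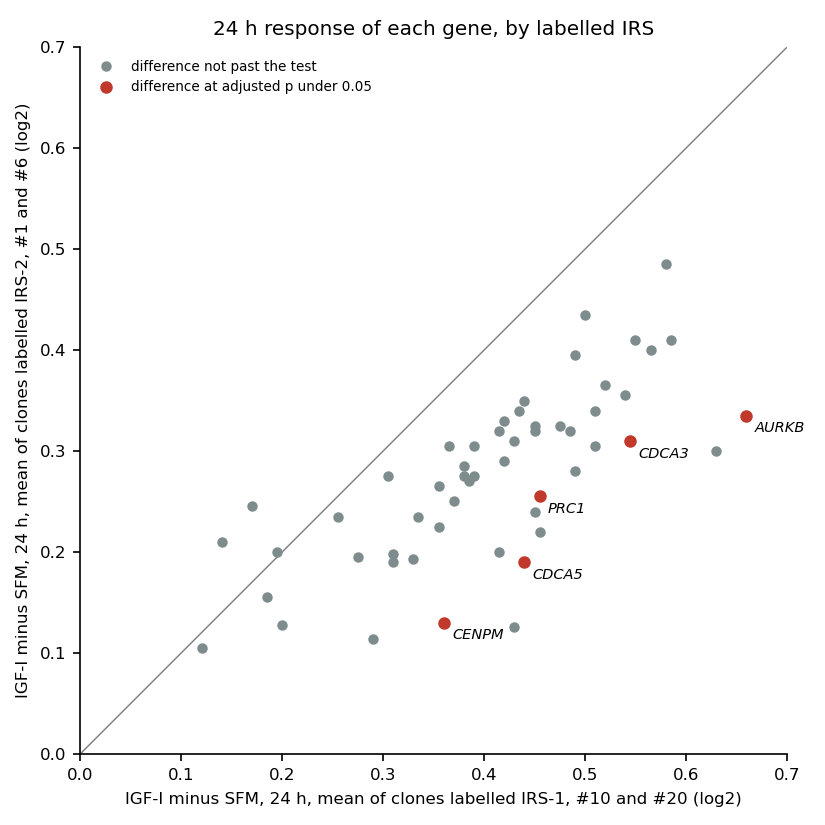
Mean 24 h response (IGF-I minus SFM, log2) of each of the 54 genes in the clones labelled IRS-1 (x axis) and in those labelled IRS-2 (y axis), with the line of equal responses. Points under the line responded more in the clones labelled IRS-1, as 51 of 54 did, and the 5 red points passed the test of the difference at an adjusted p under 0.05.

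Clones that share a label differed as well. Clone #10 minus clone #20 at 24 h had a median difference of 0.082 and passed for 2 genes, CENPM (0.31, SE 0.077, adjusted p = 0.0337) and ZWINT (0.24, SE 0.049, adjusted p = 0.00465), where 0.394% of all genes passed in that direction and 1.16% in the other. ZWINT rose by 0.43 in clone #10 and by 0.19 in #20. Neither call held when any 1 letter was left out. Clone #6 minus clone #1 had a median of -0.14 and no gene passed, while limma had 16 lower and 0 higher at an unadjusted p under 0.05, where 3.85% and 3.67% of all genes were. After adjustment over all genes, 0.00506% passed as lower there and 0 as higher. The median difference between the clones of a label was thus of the same order as that between the labels. At 4 h neither clone difference passed for any of the genes, with 9 higher and 0 lower at an unadjusted p under 0.05 for #10 minus #20, and 0 higher and 2 lower for #6 minus #1. The shares of all genes at that p were 5.26% higher and 3.54% lower for #10 minus #20, and 1.89% higher and 1.84% lower for #6 minus #1. After adjustment, 0.0253% passed as higher and 0.0202% as lower for #10 minus #20, and 0 either way for #6 minus #1.

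The ratio of the 3′ to the 5′ ACTB probe sets, a sign of RNA integrity and labelling, was 0.21, 0.16, 0.11 and 0.10 on the log2 scale in clones #10, #20, #1 and #6 with IGF-I at 24 h, against 0.23, 0.19, 0.16 and 0.11 in SFM. With it as a covariate, 6 genes passed the difference between labels at 24 h, against 5 without it.

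Other genes of the cell cycle moved with the set to different degrees. The 12 mitotic kinesins, the motors of the spindle, rose in 12, 11, 11 and 6 cases at 24 h in clones #10, #20, #1 and #6, with medians of 0.50, 0.28, 0.36 and 0.21. KIF14, which acts in cytokinesis, passed 1.5-fold in #10 (0.60) and #20 (0.62). A list of 61 other mitosis genes rose in 38, 31, 34 and 11 cases, with medians of 0.33, 0.19, 0.24 and 0.11, and 2, 1, 0 and 1 of them fell. CENPU, an inner kinetochore subunit, rose most among them in clone #10 (0.61). These lists were written from general knowledge, with earlier results known.

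DNA replication genes rose in 37, 16, 24 and 7 of 40 cases, with medians of 0.42, 0.15, 0.20 and 0.093. In clone #10 the replication initiator MCM10 (0.72) and the ribonucleotide reductase subunit RRM2 (0.68) rose about as much as the largest mitotic changes. The difference between clones #10 and #20 passed for 22 of the 40 replication genes, with a median of 0.31, against 2 of the 54 mitotic genes, with a median of 0.082. All were larger in #10, where 0.394% of all genes passed in that direction and 1.16% in the other. The count for the mitotic genes turned on the scaling, and that for the replication genes was not taken under the alternatives. Whether the lists differ from each other was not tested.

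Of 18 cell cycle transcription factors and their partners, 10, 8, 5 and 1 rose. FOXM1, the forkhead factor of G2 and M genes, rose by 0.56, 0.30 and 0.34 in clones #10, #20 and #1 and had 0.16 in #6 (adjusted p = 0.226). MYBL2, the MuvB partner, rose by 0.52, 0.31 and 0.26 and had 0.19 in #6 (adjusted p = 0.0510). E2F1, a factor of S phase genes, rose in #10 (0.54, adjusted p = 3.77e-07) and had 0.061, 0.20 and 0.078 in #20, #1 and #6, which did not pass.

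**Figure D5:**
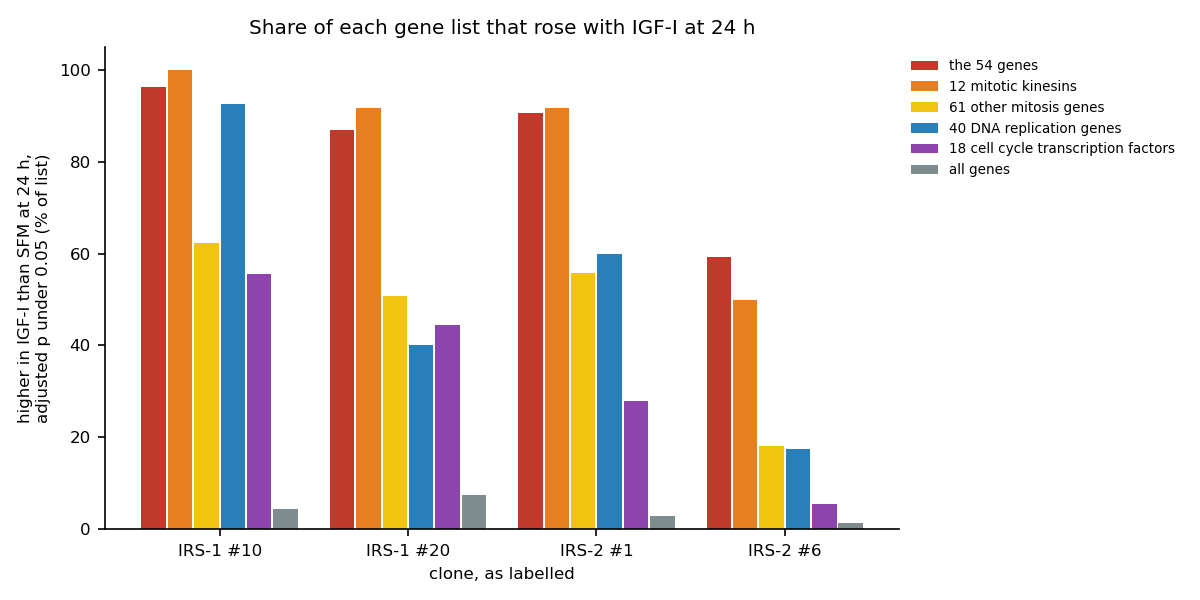
Share of each gene list (bars, % of the list, axis from 0) that was higher with IGF-I than in SFM at 24 h at an adjusted p under 0.05, by clone (x axis). The 54 genes and the kinesins reach 87.0% or more in clones #10, #20 and #1, and the 54 genes reach 59.3% in #6, against 1.42% to 7.46% of all genes.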

How the data were processed

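RNA of 48 samples was hybridised to Affymetrix HG-U133 Plus 2.0 arrays. The authors deposited log2 values, summarised and normalized between arrays by GC-RMA in GeneData Refiner, whose version is not given in the sources used here. GC-RMA equalizes array distributions, so a shift of most genes at once would be removed. A further normalization to untreated samples, named in the methods, is not in these values, whose array medians ran between 7.39 and 7.51. Array values carry no counts, so their number limits the precision.

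The array holds 54675 probe sets, and 62 that serve as Affymetrix controls were not tested. By the platform annotation, 41097 probe sets had 1 symbol, 1801 several and 11777 none, and only those with 1 were named. The other 54613 were fitted with limma 3.58.1 in R 4.3.3 with 1 mean per group, empirical Bayes with an intensity trend and 32 residual degrees of freedom, and p-values were Benjamini-Hochberg adjusted over all of them. Since arrays are the replicates, the spread between clones is not in the errors. The script was tested on simulated data. Lists were drawn up, and the members chosen, with earlier results of these data known. Array values are given for genes past both thresholds in a comparison and otherwise for the 3 largest changes past the adjusted p, with up to 3 such genes of the other lists, and E2F1, MYBL2 and FOXM1 always. Other genes are named as examples of their role. Promoters came from the RefSeq table for GRCh38.p14. Alternatives were other scalings, filters, probe set rules, error models and adjustments, a replicate block, an ACTB covariate and leaving out each array letter.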

Additional observations from a re-analysis of the deposited data

Results flagged for a closer look

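The IGF-I response of the 54 genes differed between 24 h and 4 h by limma's test of the difference itself, in 48 genes in clone #10, 50 in #20, 41 in #1 and 22 in #6, each time with the larger response at 24 h.

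The 24 h response differed between the clones labelled IRS-1 and those labelled IRS-2 in 5 genes by the same kind of test. The differences were 0.32 for AURKB, 0.25 for CDCA5, 0.23 for CDCA3, 0.23 for CENPM and 0.20 for PRC1 on the log2 scale, larger in the clones labelled IRS-1, in which all 3 IRS1 probe sets were lower than in those labelled IRS-2. On dimmer probe sets, AURKB and CDCA3 were not larger in both clones labelled IRS-1 than in both labelled IRS-2. The count was 0 after median centring and 0 without the arrays lettered A. Clones #10 and #20, which share a label, differed in 2 genes, CENPM (0.31) and ZWINT (0.24), with the larger response in #10, and neither call held when any 1 letter was left out.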

How the results depend on the processing

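No result turned direction past a threshold. Of 330 values of single genes under alternatives, 264 kept their direction and call and 66 kept the direction alone. Scaling moved the median of all genes by at most 0.044, and the precision is limited by 3 arrays a group. The causes were not tested.

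With quantile normalization, the falls at 4 h were 2 in clone #1 and 5 in #6, SFM over time gave 12 falls in #10, 30 rises in #20 and 1 in #6, the 24 h minus 4 h response passed for 41 in #6, the label difference at 24 h for 10 and #10 minus #20 for 14, and genes past 1.5-fold were 11 in #10 and 0 in #1. Medians were then 0.32 (24 h) and -0.044 (4 h) in #20, and -0.084, 0.18 and -0.068 for SFM over time in #10, #20 and #6. With median centring, 18 genes rose at 24 h in #6, the falls at 4 h were 0, 6, 0 and 1 in #10, #20, #1 and #6, SFM over time gave 0 falls in #10 and 7 rises in #20, with a median of 0.041 in #6, the 24 h minus 4 h response passed for 13 in #6, and the label and #10 minus #20 differences for 0 each.

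With only the arrays of a comparison, the falls at 4 h were 0, 0 and 2 in #10, #20 and #1, SFM over time gave 0 falls in #10 and 10 rises in #20, and the label difference passed for 9 and #10 minus #20 for 1. Without the intensity trend, the falls at 4 h were 0, 6, 0 and 1, SFM over time gave 0 falls in #10, and those differences passed for 2 and 1. With each gene as the average of its probe sets, 0 genes fell at 4 h in #1. With the ACTB covariate, 0 passed 1.5-fold in #1. The methods' t-test after Benjamini-Hochberg adjustment had 1, 0 and 0 genes past 1.5-fold in #10, #20 and #1, and 6, 1 and 1 before adjustment at an unadjusted p under 0.05.

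With Bonferroni adjustment, 29, 25 and 5 genes rose at 24 h in #20, #1 and #6, 0 fell at 4 h in each clone, SFM over time gave 0 falls in #10, 2 rises in #20, 4 falls in #1 and 0 rises in #6, the 24 h minus 4 h response passed for 25, 31, 11 and 4, and the label and #10 minus #20 differences for 0 each.

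The array letters were treated as names, since the labels do not say whether they pair arrays. Of 24 same-letter correlations of deviations, 3 were over 0.1 (range -0.47 to 0.305), and 4 of 24 arrays correlated best with their own letter. With 3 arrays a group these values do not settle whether letters pair arrays. With the letter as a replicate block, the falls at 4 h were 2, 5, 0 and 1 in #10, #20, #1 and #6, the label difference passed for 1 and #10 minus #20 for 0.

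Leaving out each letter in turn, the rises at 24 h were 30 to 46 in #1 and 14 to 20 in #6, the falls at 4 h 0 to 3, 0 to 23, 0 to 0 and 0 to 5 in #10, #20, #1 and #6, and SFM over time gave 0 to 2 falls in #10, 6 to 13 rises in #20, 5 to 26 falls in #1 and 1 to 2 rises in #6. The 24 h minus 4 h response passed for 31 to 47, 10 to 26 and 7 to 15 in #20, #1 and #6, the label difference for 0 to 3 and #10 minus #20 for 0 to 0. Genes past 1.5-fold were 3 to 11, 0 to 5 and 0 to 1 in #10, #20 and #1. Medians were 0.32 to 0.39 at 24 h in #20, -0.17 to -0.068 and -0.13 to -0.016 at 4 h in #20 and #6, and -0.23 to -0.16 for SFM over time in #1.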
